A study of Rattus norvegicus with 18 samples.

Results

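The dopamine-denervated striatum of rats treated with L-DOPA plus Riluzole (L-DOPA + R) was compared with that of untreated (UNT) rats, CpG by CpG, by reduced representation bisulfite sequencing (RRBS). A cytosine needed 10 or more reads in a striatum to be kept. Positions lying 46 to 50 bases past (5′ to 3′) another called cytosine on its strand were dropped because calls at some of these distances changed abruptly. Both strands of a CpG were then added up, and the CpG had to be present in all 6 lesioned striata. In this way 435616 CpGs were tested, out of 476919 before cytosines were left out by distance and 2395984 that were listed with any read in any of the 6 striata. Of 18 striata in the series, 3 lesioned L-DOPA + R and 3 lesioned UNT striata made up the comparison, each from a different rat.

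The animals were juvenile male Wistar rats, and both groups carried the same lesion: 6-hydroxydopamine (6-OHDA), a toxin taken up by dopamine neurons, injected into the left medial forebrain bundle on postnatal day (PND) 21. L-DOPA + R rats received 6 mg/kg L-DOPA methyl ester, 15 mg/kg benserazide, a decarboxylase inhibitor that acts outside the brain, and 6 mg/kg Riluzole dissolved with Tween. Injections were intraperitoneal and given 6 times between PND 35 and 49, and again on PND 53, the day of tissue collection. UNT rats were given saline on the same schedule, so that the comparison covers both drugs, benserazide and the vehicle of Riluzole together. Lesioned striata of 3 rats given L-DOPA without Riluzole and the opposite, non-lesioned (control) striata of the L-DOPA + R and UNT rats were used only to set further values beside these results. The labels name no sequencing batch for any striatum.

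Loss of striatal dopamine followed by repeated L-DOPA produces involuntary movements in rodents, as it does in patients with Parkinson's disease, and Riluzole, which dampens glutamate release and blocks sodium channels, has been used to reduce them. Methylation of the cytosine in CpGs is a covalent mark that is mostly absent from CpG islands at active promoters and mostly present elsewhere, and it is read in RRBS because bisulfite turns unmethylated cytosines into T while MspI digestion concentrates the reads near CCGG sites. Each striatum is a mixture of neurons and glia, and a change of methylation within cells cannot be told apart here from a change in the share of cell types. Sequence differences between the rats were not examined either, and a T in the DNA itself is read in the same way as an unmethylated cytosine. The labelled tissue could not be checked against marker genes, since only DNA was measured.

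The 3 UNT libraries held between 30288745 and 49113957 cytosine calls and the 3 L-DOPA + R libraries between 20094079 and 25846139, with a median of 36 and 23 reads per tested CpG and striatum. In the unmethylated spike-in DNA, 0.477% to 0.562% of the calls were read as methylated in UNT and 0.467% to 0.563% in L-DOPA + R, so that these ranges overlapped. With the coverage of the 6 striata scaled to the same median, 192 DMS were called, 123 lower and 69 higher, of which 177 were among the 211 given next. With 20 reads required per cytosine, 88 lower and 22 higher DMS were called among 140318 CpGs. When the CpGs of the very highest coverage were removed, 132 lower and 63 higher DMS were obtained.

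Differentially methylated sites (DMS) were CpGs with a q under 0.01, from a chi-square test on a logistic model with overdispersion correction and Benjamini-Hochberg adjustment over all tested CpGs. L-DOPA + R and UNT differed at 211 of the 435616 CpGs, which is 0.0484%. L-DOPA + R had the lower methylation at 143 of them (0.0328% of the tested CpGs) and higher at 68 (0.0156%). Without adjustment, 22617 CpGs (5.19%) had a lower and 11978 (2.75%) a higher methylation at a p under 0.05. Differences at most CpGs were small, with a median size of 2.35 percentage points, and 389593 CpGs (89.4%) differed by less than 10 points. The values of the 3 L-DOPA + R striata lay wholly below those of the 3 UNT striata at 22825 CpGs (5.24%) and wholly above at 11384 (2.61%), and they did not overlap at any of the 211 DMS.

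The count of DMS depended on which cytosines were left out by distance, a rule chosen with earlier results of these data known, and on the test. The whole set of cytosines gave 1370 DMS (1118 lower and 252 higher), and with only those at 50 bases left out 551 (333 and 218), of which 210 and 209 were among the 211. An F test, which takes the number of rats into account, called 0 CpGs at the same q, with 7431 at an unadjusted p under 0.05, and limma on the logit of methylation called 1, with 29949 at an unadjusted p under 0.05. When a striatum was left out, between 154 and 304 DMS were called, of which between 92 and 142 were among the 211.

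Surroundings rich in CpGs, with at least 5 other tested CpGs within 100 bases, were present at 10.4% of DMS, against 26.3% of the tested CpGs. No other tested CpG was present there at 17.1% of DMS, against 14.9%, and the median was 2 other CpGs for DMS and for all tested CpGs. The lower DMS had a median difference of -30.53 points and the higher DMS of 42.69 points, and 10 of the 68 higher and 2 of the 143 lower DMS differed by over 80 points. Of these 10 higher DMS, 8 had a cytosine 44 or 45 bases past a called one, and away from these positions the counts were 2 of 43 higher and 2 of 136 lower DMS. The smallest differences, under 1 point, were at 3 CpGs of the mitochondrial DNA, which were read by 25203 to 53366 reads in every striatum.

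Among the lower DMS, group means fell from a wide range of UNT levels. UNT was at 90 to 100% at 38 of the 143, and in 9 of these all 3 UNT striata were fully methylated. L-DOPA + R was below 10% at 34 of the 143, and in 17 all 3 L-DOPA + R striata had no methylated read. Among the higher DMS the levels were further apart, with L-DOPA + R at 90 to 100% in 31 of the 68 and UNT below 10% in 33. All 3 UNT striata had no methylated read in 12 of the higher DMS, and all 3 L-DOPA + R striata were fully methylated in 5.

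**Figure D1:**
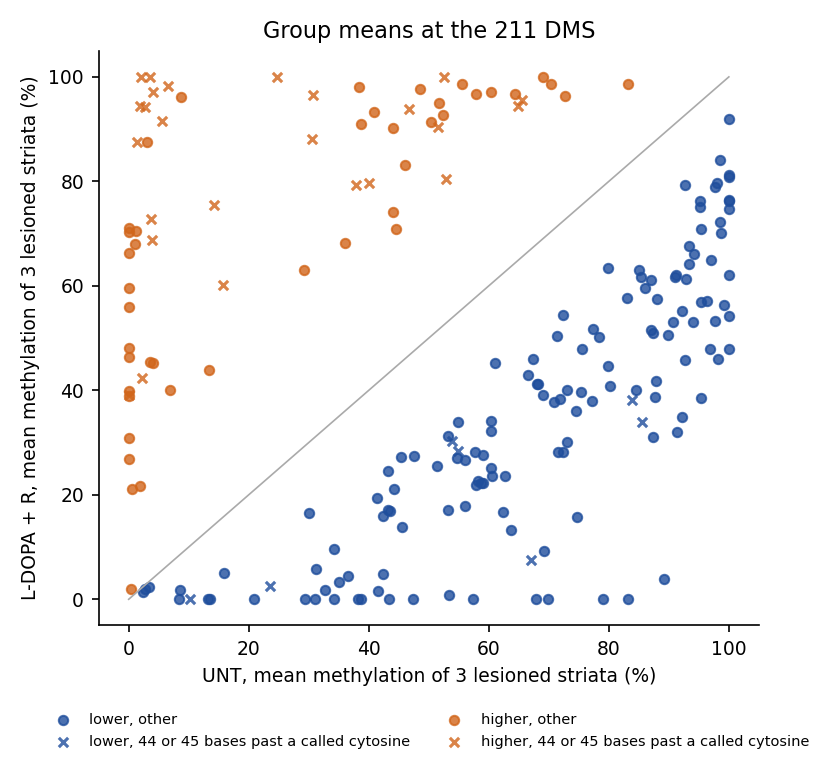
Mean methylation of the 3 lesioned L-DOPA + R striata (y axis, %) against that of the 3 lesioned UNT striata (x axis, %) at each of the 211 DMS, with lower DMS in blue, higher DMS in orange, crosses for DMS with a cytosine 44 or 45 bases past a called cytosine, and a grey line of equal values. Crosses make up 25 of the 68 higher DMS and 7 of the 143 lower DMS, and the higher DMS reach the upper left corner, with UNT near 0% and L-DOPA + R near 100%.

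The distance of the cytosines past a called cytosine of the same strand is given for both kinds of DMS. A cytosine 44 or 45 bases past a called cytosine was part of 25 of the 68 higher DMS (36.8%), of 7 of the 143 lower DMS (4.9%) and of 4.95% of all tested CpGs. The strand make-up of the reads, given as the share of a group's reads from the forward strand, differed between the groups by over 20 points at 29.4% of the higher DMS, 7.69% of the lower DMS and 4.65% of all tested CpGs. At 16 higher DMS it differed by over 90 points, all 16 had a cytosine 44 or 45 bases past a called cytosine, and in all 16 the L-DOPA + R reads came mainly from the other strand. No strand was read in all 6 striata at 16 higher and 3 lower DMS, so the groups could not be compared on a common strand there. Where a strand was read in all 6 striata and tested by itself, a call in the same direction was obtained at 47 of 52 higher and 117 of 140 lower DMS. The reads of L-DOPA + R relative to UNT were 0.613 at cytosines up to 39 bases past a called one or with none before them. They were 0.615 and 0.627 at 44 and 45 bases. At 49 bases this ratio was 0.658, and at 50 bases, among the positions left out, it was 1.39, as the mean reads of the UNT striata went from 27.8, 17.3 and 18.5 at 49 bases to 14.5, 9.09 and 9.48 at 50 bases. The L-DOPA + R striata had 11.8, 14.7 and 15.3 reads at 49 bases and 12.9, 16.2 and 16.8 at 50 bases. At 51 and 52 bases the ratio was 0.641 and 0.639. The groups thus differed in the reads at cytosines 50 bases past a called one, and the part of this difference in the DMS was not tested. Without the 44 and 45 base positions, an alternative added after seeing the data, 132 lower and 40 higher DMS were called.

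**Figure D2:**
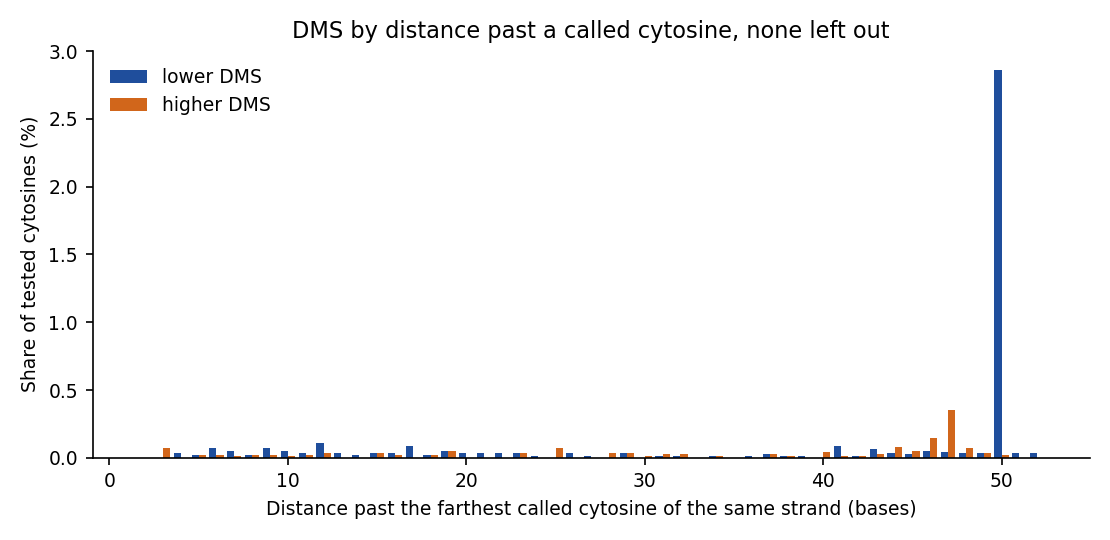
Share of cytosines called as lower (blue) and higher (orange) DMS, in % of the cytosines tested at that distance (y axis), against the distance past the farthest called cytosine of the same strand, in bases (x axis), with strands tested apart and none left out. At 50 bases 2.86% of the cytosines were lower DMS and at 47 bases 0.355% were higher DMS. At cytosines up to 39 bases past a called one or with none before them, these shares were 0.0387% and 0.0108%. The cytosines with none before them, taken alone, had 0.0487% lower and 0.0041% higher DMS.

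The lower DMS with the smallest p are given in turn. On the mitochondrial DNA, where few reads were methylated, the CpG at position 12875 was read as methylated in 2.53%, 2.35% and 2.31% of the reads in L-DOPA + R and in 3.31%, 3.41% and 3.49% in UNT. Position 8883 had 1.4%, 1.6% and 1.46% in L-DOPA + R and 2.24%, 2.36% and 2.38% in UNT. The groups did not overlap at either CpG, but the differences were -0.997 and -0.825 points (q = 3.83e-26 and 2.33e-21, chi-square test with Benjamini-Hochberg adjustment). L-DOPA rats had values between the groups at position 8883, of 1.98%, 1.95% and 1.84%.

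At chr4:102985686 (rn6), a position read by 175 to 505 reads per striatum and not listed in the annotation at hand, L-DOPA + R had 38.9%, 44.4% and 40.2% and UNT 66.7%, 71.7% and 65.9%. All L-DOPA + R values were lower, and the difference was -26.07 points (q = 1.17e-19). This CpG dropped out when those of the very highest coverage were removed, and whether its reads come from several copies was not tested. L-DOPA rats had 53.2%, 55.3% and 37.0%, so that 2 of them lay between both groups and 1 lay below all L-DOPA + R values. On the control side the difference was -33.17 points (q = 0.000179). At the intergenic chr5:149129858, L-DOPA + R had 54.5%, 33.3% and 50% and UNT 97.5%, 100% and 96.9% (difference -53.11 points, q = 1.95e-15). The L-DOPA + R rats thus had partly methylated reads where UNT was almost fully methylated. At the intergenic chr12:25126052, none of the 61 L-DOPA + R reads was methylated, which allows up to 4.92%, while UNT had 63.3%, 57.8% and 51.3%. The control side showed the same split, with no methylated read in any L-DOPA + R striatum and 37.5%, 54.5% and 34.4% in UNT.

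At 3 other named lower DMS the strands had different levels. The intergenic chr1:165562936 had 42.6%, 62.5% and 54.1% in L-DOPA + R and 93.9%, 94.9% and 93.4% in UNT with the strands added (difference -40.74 points, q = 1.22e-13). Its forward strand, the strand read in both groups, was methylated in 93.7% of the L-DOPA + R reads and 94.0% of the UNT reads. The reverse strand was methylated in 2.63% of 76 L-DOPA + R reads and was not kept in UNT. At chr3:53909993, also intergenic, all 3 UNT striata were at 100% and L-DOPA + R at 48.6%, 55.3% and 58.7%, and again the forward strand alone had 98.6% in L-DOPA + R and 100% in UNT. At chr2:209010762, with 37.2%, 35.3% and 32.1% in L-DOPA + R and 97.1%, 86.2% and 93.5% in UNT, the common reverse strand had 90.2% and 92.6%. These 3 sites lost the call when strand was a term of the model. The fitted difference was then -0.20 points at the chr1 site and -1.18 points at the chr2 site (q = 1.00 each), whereas at the chr3 site it was -49.05 points (q = 0.788), as a mean over both strands that includes a fitted UNT level on the reverse strand, which was not kept in UNT.

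Of the 8 named higher DMS, the intergenic chr13:19209692 had the smallest p. It was methylated at 87.9%, 81.4% and 93.1% in L-DOPA + R, at 4.29%, 3.92% and 0.813% in UNT, and read by at least 102 reads in every striatum (difference 84.68 points, q = 1.74e-48). All 3 rats of a group were close together in the 2 groups, whereas the L-DOPA rats had 93.9%, 3.90% and 50.5% and spanned the whole range. The control striata repeated the split, with 87.6%, 84.0% and 82.7% in L-DOPA + R and 0.909%, 0.877% and 3.55% in UNT.

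In an intron of Rbm20, a splicing regulator of muscle genes, the CpG at chr1:274397891 was methylated at 100%, 98.0% and 98.0% in L-DOPA + R and at 55.1%, 55.3% and 56.1% in UNT. The SD was 1.16 points in L-DOPA + R and 0.55 points in UNT (n = 3 each), beside a difference of 43.31 points (q = 1.69e-23), and the L-DOPA rats had 91.7%, 100% and 95.7%. The position chr11:8893036, not listed in the annotation, showed nearly the same levels, with 100%, 98.4% and 94.5% in L-DOPA + R and 49.7%, 49.4% and 46.7% in UNT. It dropped out when the CpGs of the very highest coverage were removed, and whether its reads come from several copies was not tested. In an exon of Actn2, which encodes the actin crosslinker alpha-actinin 2 of muscle and dendritic spines, chr17:66325363 had 82.9%, 93.5% and 88.1% in L-DOPA + R and 31.6%, 32.8% and 27.2% in UNT. The Actn2 site has a reverse cytosine 44 bases past a called one, and on this reverse strand, the only one kept in both groups, 85.1% of the L-DOPA + R and 30.5% of the UNT reads were methylated.

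At 3 named higher DMS the groups had no strand in common. The exonic CpG of Asic2, a subunit of proton-gated sodium channels, at chr10:68248477 had 100%, 100% and 94.7% in L-DOPA + R and 5.71%, 8.51% and 5.41% in UNT, the difference of 91.87 points being among the largest. All 61 L-DOPA + R reads were on the reverse strand and all 154 UNT reads on the forward strand, where the cytosine is 44 bases past a called one. The same held for the intergenic CpGs chr11:47314379, with 100% in all 3 L-DOPA + R striata and 2.33%, 0% and 8.33% in UNT, and chr20:34747607, with 100% in all 3 and 6.25%, 0% and 0%. These 3 sites also lost the call with strand as a term (fitted differences of 45.93, 48.47 and 48.75 points, q = 1.00 at each), and strand and treatment cannot be told apart there.

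At the intergenic chr16:14831126 the L-DOPA rats were near the level of UNT. L-DOPA + R had 71.0%, 70.0% and 63.2%, UNT 3.12%, 0% and 0%, and L-DOPA 0%, 0% and 3.85%. The difference between L-DOPA + R and UNT was 66.25 points (q = 8.18e-28), and the CpG was also called between L-DOPA + R and L-DOPA (q = 1.56e-19). A DMS 6391 bases away, at chr16:14837517 and singled out after its values were seen, had 50%, 61.5% and 56.1% in L-DOPA + R and 0% in all 3 UNT and all 3 L-DOPA striata.

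**Figure D3:**
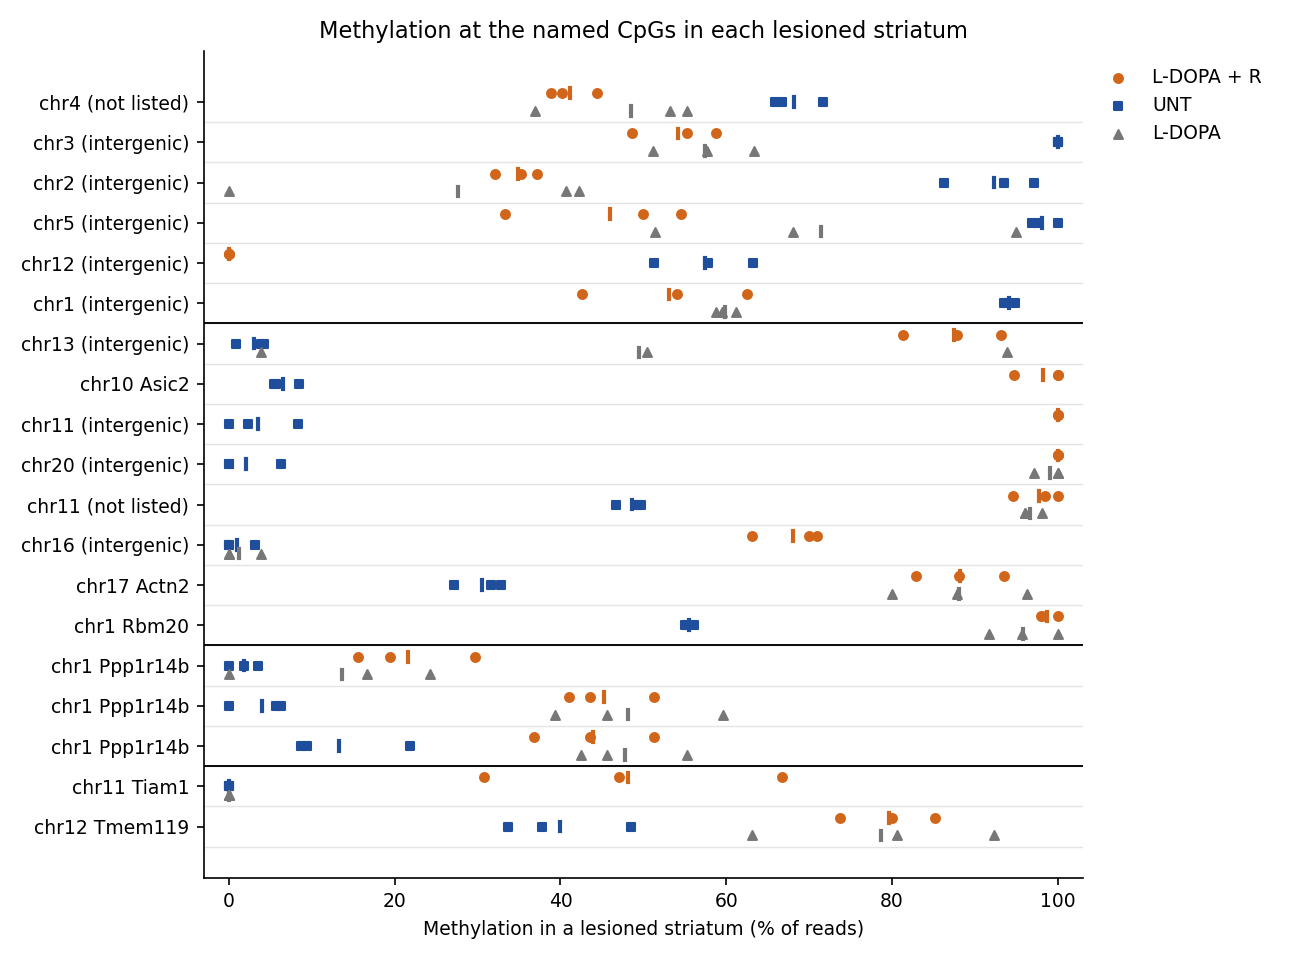
Methylation (x axis, % of reads) in each lesioned striatum at the named CpGs outside the mitochondrial DNA (rows, by chromosome with the gene or the region), with L-DOPA + R as orange circles, UNT as blue squares, L-DOPA as grey triangles where all its striata had values, and vertical bars for the mean of 3 striata. From top to bottom, black lines separate lower DMS, higher DMS, the 3 DMS of Ppp1r14b, and Tiam1 with Tmem119. L-DOPA + R and UNT do not overlap in any row, while L-DOPA lies near L-DOPA + R in some rows, near UNT in others and spans the range at the CpG on chr13.

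DMS were mostly isolated. Of the 211, 196 had no other DMS within 1000 bases, and 7 pairs of neighbouring DMS were at most 100 bases apart, all 7 changing in the same direction. This count depended on the distance rule, since 77.61% of 268 such pairs had the same direction with no cytosines left out and 20.29% of 69 pairs with only those at 50 bases left out. Only 1 run of at least 3 DMS was found, in the promoter of Ppp1r14b, a gene for an inhibitor of protein phosphatase 1. From chr1:222229921 to chr1:222230026 all 3 DMS were higher in L-DOPA + R. The first had 15.6%, 19.4% and 29.7% in L-DOPA + R and 1.89%, 3.57% and 0% in UNT. At chr1:222229996 the values were 51.3%, 43.6% and 41.0% against 5.66%, 6.25% and 0%. The third DMS had 51.3%, 36.8% and 43.6% against 9.43%, 21.9% and 8.70%. Differences were 20.13, 40.67 and 31.00 points, with q of 0.00218, 1.27e-09 and 0.00507. Other CpGs within 100 bases, without the DMS of this run, had median differences of 11.32 to 13.62 points in the same direction. The first and the third DMS lost the call in several alternatives, among them the scaled coverage (18.83 points, q = 0.0144, and 29.31 points, q = 0.0206), and the middle DMS kept it in every alternative with the chi-square test in which it was tested. On the control side all 3 were called in the same direction, with 21.08, 43.14 and 46.90 points. L-DOPA rats had 24.2%, 16.7% and 0% at the first DMS, with 1 rat at the level of UNT. They had 45.7%, 59.6% and 39.4% at the middle DMS and 45.7%, 55.3% and 42.4% at the third, above all UNT values.

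A pair of DMS lay in the promoter of Rn5-8s, the gene of the 5.8S ribosomal RNA. At chr1:11906165 the CpG was methylated at 4.76%, 0% and 17.9% in L-DOPA + R and at 69.8%, 64.7% and 66.7% in UNT (difference -57.49 points, q = 8.72e-12). At chr1:11906162 the values were 28%, 5.88% and 37.1% against 64.7%, 62.9% and 60.3%. Both had a low and variable level in L-DOPA + R and a narrow range in UNT. The 5 other CpGs within 100 bases had a median difference of -6.61 points. L-DOPA rats were low at both, with 1.82%, 4.35% and 8.11% at the former. The former cytosine is 44 and the latter 41 bases past a called one, and ribosomal genes are repeated, so reads of several copies can be added up here. The other pairs, singled out after their values were seen, lay on chr3, chr8, chr13 and chr15. Both CpGs of the chr13 pair, at 23853409 and 23853429, had no methylated read in L-DOPA + R, whereas UNT had 88.2%, 53.4% and 95.6% at the former and 95.5%, 58.6% and 95.6% at the latter, and the L-DOPA rats 2.78%, 97.7% and 57.7% at the former.

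The other CpGs around the DMS were followed as well. At the 116 lower DMS with another tested CpG within 100 bases, the median over sites of the neighbours' median difference was -9.26 points, beside a median of -31.01 points at the DMS themselves. The neighbours were on balance lower at 90 of the 116 (77.6%), against 44.8% of all 370641 tested CpGs with a neighbour. At 58 (50%) at least 1 neighbour was lower with an unadjusted p under 0.05, against 12.1% of these CpGs. The neighbour median was within 5 points of 0 at 42 of the 116 (36.2%), against 80.4%. At the 59 higher DMS with neighbours, this median was 0.89 points, beside 42.11 points at the DMS. The neighbours were on balance higher at 36 of the 59 (61%), against 32% of all, and at 11 (18.6%) at least 1 neighbour was higher with an unadjusted p under 0.05, against 9.22%. The neighbour median was within 5 points of 0 at 41 of the 59 (69.5%). The higher DMS away from the 44 and 45 base positions had a neighbour median of 0.86 points. Some neighbours were DMS themselves. Counting only neighbours that were not, the medians were -8.10 points at 112 lower DMS, with 86 of them lower on balance, and 0.89 points at the 59 higher DMS. The neighbours come from the same reads and the same fit, so these values are a description.

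Gene positions were known only where the supplementary table of the study lists a site, which it does for 52 lower DMS (of 143) and 53 higher DMS (of 68). Of the listed lower DMS, 39 were intergenic, 7 in introns, 4 in exons and 2 in promoters. The listed higher DMS were intergenic at 32, intronic at 9, exonic at 9 and in a promoter at 3, the 3 being those of Ppp1r14b.

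The lower DMS named 11 genes. Prkcb, the gene of protein kinase C beta, had an intronic CpG at chr1:192552434 with 23.8%, 16% and 25.6% in L-DOPA + R and 69.5%, 50.9% and 53.3% in UNT (difference -36.68 points, q = 0.00418). L-DOPA rats had 62.5%, 72.2% and 63.6%, close to UNT, and the CpG was also called between L-DOPA + R and L-DOPA (difference -43.86 points, q = 6.74e-06). In Clint1, which encodes an adaptor of clathrin-coated vesicles, none of the 64 L-DOPA + R reads was methylated at chr10:30979401, which allows up to 4.69%, against 31.1%, 32.1% and 25% in UNT. L-DOPA rats were at 0% there as well. In Mpdz, a scaffold protein with many PDZ domains, an exonic CpG had 22.2%, 12% and 17.2% against 51.4%, 58.3% and 50%, and its neighbours had a median difference of -26.30 points. Samd4a, an RNA-binding repressor of translation, had 10%, 0% and 4.55% against 39.3%, 52.6% and 35.3%, with a neighbour at -40.50 points that was a DMS too. The remaining genes were Alg11, Pknox1, Set, Stom, Dbf4 and Gimap4, with differences between -59.47 points at Dbf4, which encodes the activator of a replication kinase, and -15.70 points at Gimap4, a GTPase of lymphocytes.

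The higher DMS named 19 genes. Those with a cytosine 44 or 45 bases past a called one were Asic2, Mad1l1, Hip1, Tmem119, Rgl1, Dok7, Actn2, Slc29a3, Ankrd6, Azin2, Slc2a5 and Rere. Without such a cytosine were Ppp1r14b, Rbm20, Tiam1, Colq, Adamts14, Col16a1 and Satb1. In an intron of Colq, the collagen tail of acetylcholinesterase, the CpG at chr16:7658333 had 78.9%, 53.3% and 78.6% in L-DOPA + R and 0% in all 3 UNT striata, with 0 of 77 reads allowing up to 3.90%. An exonic CpG of Satb1, a chromatin organiser, had 90%, 63.2% and 60% against 0% in all 3, with 0 of 56 reads allowing up to 5.36%. In an intron of the collagen gene Col16a1, L-DOPA + R had 58.3%, 29.6% and 28.6% and UNT 0%, and in Adamts14, a procollagen peptidase, 90%, 100% and 100% stood against 50%, 57.1% and 66.7%. The neighbours of these 4 DMS had median differences between -3.62 and 3.87 points.

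No gene held a DMS at a listed position in the lists for dopamine signalling (0 of 15 genes), the cAMP pathway (0 of 22), glutamate receptors (0 of 32), glutamate transport and release (0 of 13) and the GABA system (0 of 16). The same count was found for voltage-gated sodium and calcium channels (0 of 17), ERK and immediate early genes (0 of 19), the DNA methylation machinery (0 of 15) and imprinted genes (0 of 29). Among the 29 genes for synapse organisation and axon guidance, 1 did. Of the markers, 1 of 6 for microglia did, beside 0 of 11 for projection neurons, 0 of 7 for astrocytes, 0 of 9 for oligodendrocytes and 0 of 5 for endothelial cells. These counts are lower bounds, because 106 DMS had no listed position, and which genes held a tested CpG was not analysed here, so no share over all genes stands beside them. In an intron of Tiam1, an activator of Rac that takes part in the growth of dendritic spines, chr11:29986999 had 66.7%, 30.8% and 47.1% in L-DOPA + R, at only 12, 13 and 17 reads. All 129 UNT reads were unmethylated, which allows up to 2.33%, and so were those of all 3 L-DOPA rats. The differences of 47.62 points to both groups were called (q = 8.72e-12 and 1.75e-07), its control striata had 55.6%, 61.1% and 40% against 0% in all 3 UNT, and its neighbour differed by 0.99 points. In an intron of Tmem119, a surface protein used as a microglial marker, chr12:48601077 had 73.7%, 80% and 85.2% in L-DOPA + R and 33.6%, 37.8% and 48.5% in UNT. This Tmem119 site, with a cytosine 44 bases past a called one, lost the call when any of the 3 L-DOPA + R striata, UNT replicate 1 or UNT replicate 2 was left out, with differences of 36.21 to 45.02 points in these 5 cases beside 41.59 points with all striata.

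Control striata of the same rats, which were not used to call the DMS, had values at 125 lower and 49 higher DMS. On that side 269 of 413809 CpGs were called (0.065%), 197 lower (0.0476%) and 72 higher (0.0174%). At the lower DMS of the lesioned side, 115 of 125 were also lower on the control side, 66 without overlap of the groups (5.93% of all CpGs of that side) and 31 with a q under 0.01. The median difference there was -13.49 points, beside -28.62 points on the lesioned side at the same CpGs, and 59 of the 125 had less than 0.5 of their lesioned-side difference. Of the higher DMS, 46 of 49 were higher on the control side, 40 without overlap (2.52% of all), 32 with a q under 0.01, and the medians were 39.87 and 41.16 points. At the 32 higher DMS with control values and away from the 44 and 45 base positions, these medians were 30.66 and 34.16 points. At the 17 with such a position they were 56.02 and 64.58 points. Strands were added up on the control side too, and its values were not split by strand. The control difference was -40.1 points at chr1:165562936, whose common strand had 93.7% and 94.0% on the lesioned side. No share over all control-side CpGs stands beside the counts of direction. Since the DMS were chosen for their difference on the lesioned side, a smaller value on the other side is not by itself a difference between the sides.

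The difference between the sides was tested as an interaction of treatment and side over 342463 CpGs present in all 12 striata. At a q under 0.01, 0 CpGs were called by the chi-square test and 0 by the F test, the smallest q of the chi-square test was 0.0199, and 22307 CpGs (6.51%) had an unadjusted p under 0.05. Of the 174 DMS in this test, 59 had an unadjusted p under 0.05, a count that is not read against all CpGs because the DMS were chosen for their difference on the lesioned side. Both striata of a rat entered this test as separate samples.

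**Figure D4:**
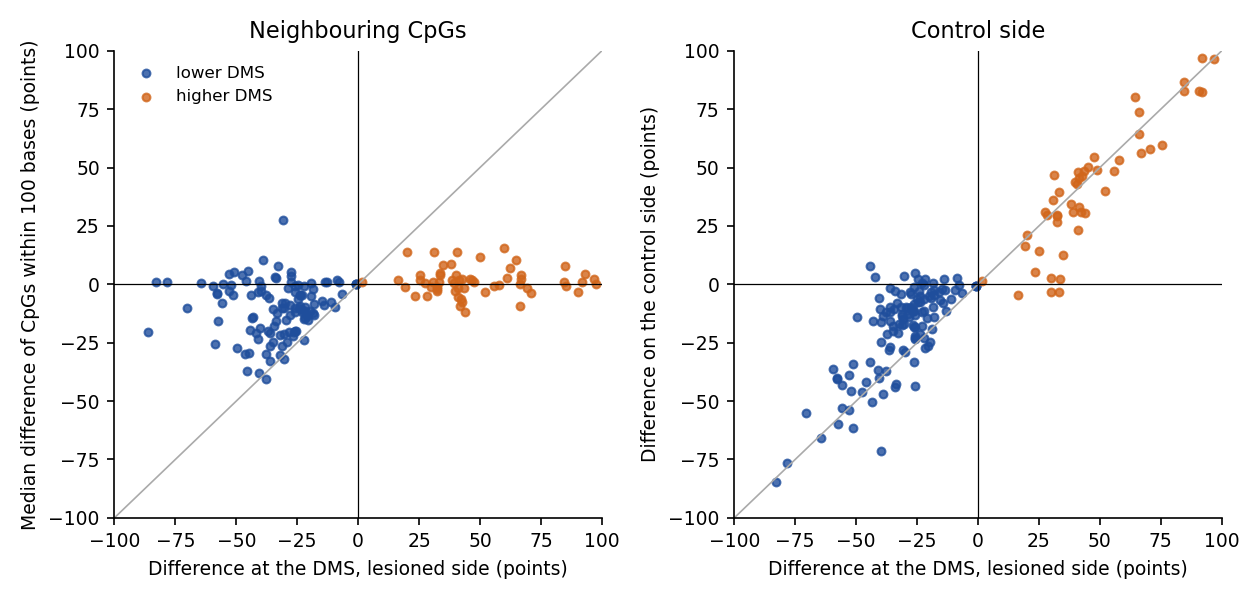
Difference at each DMS on the lesioned side (x axes, points, L-DOPA + R minus UNT) against the median difference of other CpGs within 100 bases (left, y axis, points) and against the difference at the same CpG on the control side (right, y axis, points), with lower DMS in blue, higher DMS in orange and grey lines of equal values. On the left most higher DMS lie near 0 and lower DMS reach below it, while on the right 115 of 125 lower and 46 of 49 higher DMS keep their direction.

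Lesioned striata of L-DOPA rats had values at 121 lower and 50 higher DMS. At the lower DMS, the medians of the group means were 33.97% in L-DOPA + R, 52.13% in L-DOPA and 69.86% in UNT. At the higher DMS they were 77.38%, 61.14% and 29.89%. The L-DOPA mean was closer to L-DOPA + R than to UNT at 52 of 121 lower and 35 of 50 higher DMS. As L-DOPA + R and UNT values chose the sites, the place of L-DOPA between them is a description. L-DOPA + R was tested against L-DOPA at 343322 CpGs, of which 77 were called (0.0224%), and they included 11 lower DMS out of 121 and 3 higher DMS out of 50. Among these DMS were Prkcb, Tiam1 and the pair of CpGs on chr16 given above. At chr4:148931972, intergenic and singled out after its values were seen, all 3 L-DOPA + R striata were at 0%, UNT had 46.2%, 39.1% and 44.7%, and L-DOPA 58.3%, 33.3% and 65.0%.

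Beyond single sites, methylation was slightly lower in L-DOPA + R over the CpGs of intermediate level. Over the 96566 CpGs with a mean of 20 to 80%, the L-DOPA + R striata had a mean methylation of 54.74%, 51.20% and 55.82% and the UNT striata 57.77%, 57.13% and 58.39%. All L-DOPA + R values were below all UNT values, and the difference was -3.85 points (53.92% ± 2.42 against 57.76% ± 0.63, SD, n = 3, two-sided exact permutation p = 0.1, the smallest that 3 against 3 can give). The lowest striatum, L-DOPA + R replicate 2, carried part of it, and the difference was -2.64 points without it and up to -4.84 points without another striatum. Of these CpGs 66% were lower in L-DOPA + R, and the groups did not overlap in the lower direction at 10.6% and in the higher direction at 2.72%. The difference was -3.84 points without the DMS and -3.63 points over the 7561 CpGs with at least 40 reads in every striatum. At CpGs with no called cytosine up to 52 bases before them it was -4.49 points.

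CpGs under 20% had 2.50% ± 0.09 in L-DOPA + R and 2.71% ± 0.06 in UNT, and CpGs over 80% had 91.6% ± 0.47 and 92.3% ± 0.25 (SD, n = 3, exact permutation p = 0.1 each). Among the intermediate CpGs, those without a neighbour within 100 bases differed by -4.81 points and those with at least 5 neighbours by -2.67 points. On the control side the intermediate CpGs had 50.41%, 52.37% and 56.01% in L-DOPA + R and 58.83%, 58.54% and 56.65% in UNT, a difference of -5.08 points (exact permutation p = 0.1). L-DOPA + R replicate 3 and UNT replicate 3 came within 1 point of each other there, without overlapping.

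**Figure D5:**
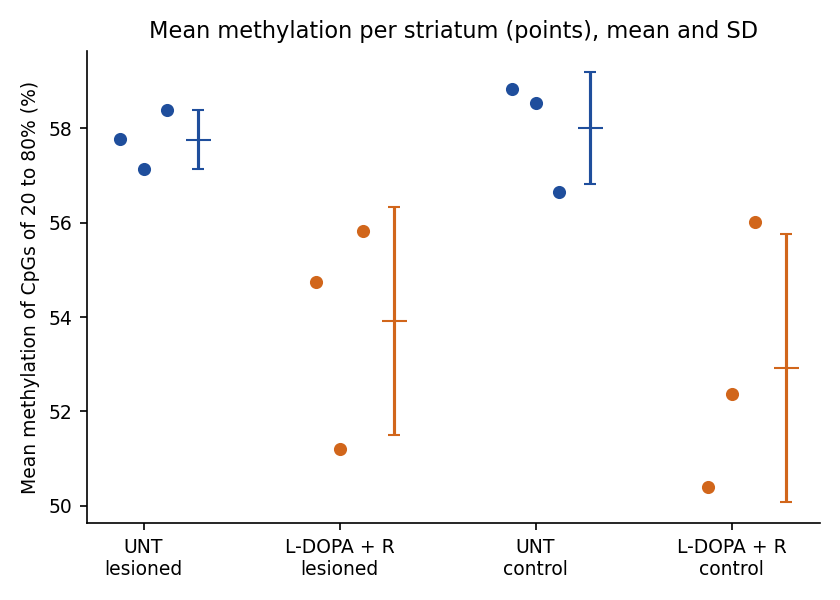
Mean methylation (y axis, %, not starting at 0) of the CpGs with a mean of 20 to 80%, in each striatum (points) of UNT (blue) and L-DOPA + R (orange) rats on the lesioned and the control side, with the mean and SD of 3 striata beside them. All 3 L-DOPA + R striata lie below all 3 UNT striata on both sides, by -3.85 points on average on the lesioned and -5.08 points on the control side.

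Along the chromosomes, the share of tested CpGs called as DMS was between 0.016% on chr9 and 0.133% on chrX among the nuclear chromosomes, with 28 DMS on chr5 and 27 on chr1 as the most. On chr8 all 10 DMS were lower. Windows of 1 Mb with at least 3 DMS were found at 6 nuclear places, on chr1 around Rn5-8s, around Ppp1r14b and at 273 to 274 Mb, on chr10 at 16 to 17 Mb, and on chr5 in both adjoining windows from 148 to 150 Mb. The pair of windows on chr5 held 4 lower and 2 higher DMS, among them those of Col16a1 and of chr5:149129858.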

How the data were processed

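RRBS calls of 15 striata were used, 3 lesioned striata of each treatment and 3 in each of the control UNT and L-DOPA + R groups. The authors trimmed 50 base single-end reads with Trim Galore 0.4.0 and mapped them to rn6 with Bismark. The coverage at each cytosine and strand is a count of reads, deposited by the authors from 1 read on and without normalization. The methylated share was deposited by the authors as a percent of these reads, and methylated reads were rebuilt as whole numbers. The control striata of the L-DOPA rats were not used here.

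The comparison ran in Python 3.11.15 (scipy 1.17.1, numpy 2.4.6 and pandas 2.3.3) after the methods of the study: a logistic model per CpG with overdispersion correction, a chi-square test and a q under 0.01, whatever the size of the difference. Overdispersion taken from the Pearson residuals and not below 1 and Benjamini-Hochberg adjustment over all tested CpGs were the choices made here. Limma 3.58.1 in R 4.3.3 was an alternative. The code was tested on simulated data. Differences are L-DOPA + R minus UNT, in percentage points, from the summed reads of a group, and mean ± SD is over rats. A CpG had a median of 28 reads per striatum, and at 14 methylated reads of 28 the 95% Wilson interval is 32.6% to 67.4%. Such intervals, and the upper limits of 3 reads given for shares of 0, cover the counting error only, and PCR copies were not separated.

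The named CpGs were the 8 lower and 8 higher DMS with the smallest p and no overlap, at most 1 per 1000 bases, runs of at least 3 DMS at most 100 bases apart, and the DMS with the smallest p in each gene of fixed lists. The comparison, the rule on distances and the lists were chosen with earlier results of these data known. Gene names and regions were taken from the supplementary table of the study, from which 639 rounded positions were not used, and accessions were turned into symbols with a RefSeq table. The annotation and sequence of rn6 were not used here. Replicate numbers stand for different rats in the groups and did not pair them.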

Additional observations from a re-analysis of the deposited data

How the results depend on the processing

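Lower and higher DMS numbered 143 and 68 in the reported setting. They numbered 88 and 22 (110 in all) with 20 reads per cytosine, 885 and 386 (1271) without overdispersion correction, 1118 and 252 (1370) with no cytosines left out, and 333 and 218 (551) with only those at 50 bases left out. With 40 to 52 bases left out they were 124 and 35. The F test gave 0 and 0 and limma on the logit 0 and 1. A replicate block, with numbers that stand for different rats and whose same-numbered striata correlated at 0.00297 to 0.0238 in their deviations, gave 304 and 173, or 477 in all, of which 181 were among those reported. Leaving out each striatum in turn gave 154 to 304 DMS, 83 to 201 lower and 60 to 132 higher, with 83 lower without L-DOPA + R replicate 2, 95 lower without UNT replicate 1 and 132 higher without UNT replicate 3. The cause of these changes was not tested.

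With no cytosines left out, the median control-side difference at lower DMS was -31.43 points, and with only 50 bases left out 20.29% of 69 neighbouring pairs had the same direction. Without each striatum in turn, the difference of mean methylation was -4.84 to -2.64 points, the neighbouring pairs, which numbered only 1 to 12, had the same direction (100% each), and the median control-side differences were -17.27 to -11.29 points at lower and 40.84 to 46.91 points at higher DMS. Over 22 alternatives, the values of 21 named CpGs kept direction and call 370 times, kept the direction only 65 times, of which 21 under the F test and 20 under limma, and reversed 0 times. Named CpGs that an alternative removed have no value in these counts. With 44 to 50 bases left out 16 named CpGs remained, and those of Asic2, Actn2 and Tmem119 were among the CpGs removed. Groups of 3 rats and 28 reads per CpG limit what could be called.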
